A study of Mus musculus with 12 samples.

Results

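The genes described here are 34 genes of macrophages and other leukocytes, read in cultures of primary mouse hepatocytes (mouse HPC) that were treated with TGF-β1. They were chosen by name, with earlier results of these data known. Each was read by the 1 probe set that stands for its symbol alone. They are 34 of 21789 probe sets with exactly 1 symbol, out of 35556 on the array. Hepatocytes from male C57BL/6 mice were isolated with collagenase and plated on collagen. The medium was renewed at 4 h, the cells grew for 24 h more, and fresh medium was given 1 h before stimulation. RNA of untreated cells and of cells kept for 20 min, 2 h or 4 h with 1 ng/ml of TGF-β1, a recombinant human protein, was hybridised to Affymetrix Gene 1.0 ST arrays, with 3 replicates per group and 12 arrays in all. No genotype other than the strain and no age of the mice are given, and no cells were sorted. Untreated cells were taken at the start only, so the time since the change of medium and the time with TGF-β1 cannot be told apart, and all later groups share the same 3 untreated arrays. The 1 h arrays are not analysed here.

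Kupffer cells are the resident macrophages of the liver sinusoids. They clear particles and bacteria from portal blood with scavenger, complement and Fc receptors, digest them in lysosomes and present the pieces on MHC class II. Their growth and survival depend on the CSF1 receptor, and their gene programme rests on PU.1, an ETS transcription factor of myeloid cells. A collagenase digest of the liver releases these cells together with hepatocytes, and TGF-β1 itself is a strong regulator of macrophages. The question asked here is whether the macrophage and leukocyte genes moved together after TGF-β1, by the same amount on the log2 scale, or gene by gene.

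The labelled cell type was checked on hepatocyte genes. In untreated cells the log2 signal was 14.61 for albumin (Alb), 14.51 for Apoa1, 14.21 for the thyroxine carrier Ttr and 12.51 for the liver factor Hnf4a. Array signals give no counts, the number of arrays limits the precision, and array medians lay between 6.82 and 6.93. Signals of different probe sets are not amounts of RNA that can be set against each other. The median of the tested probe sets, 7.23, serves below only to mark dim probe sets, in which background signal makes a change look smaller.

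To show the regulatory sequence in front of genes that moved most and of 1 that did not, the 250 bases before the RefSeq start are printed for Wfdc17 (chr11:83703806-83704055, plus strand), Igsf6 (chr7:121074531-121074780, minus strand), Ms4a6c (chr19:11469118-11469367, plus strand) and Trem2 (chr17:48346151-48346400, plus strand) of GRCm38.p6. The first 3 had the lowest changes at 4 h and Trem2 the highest. They are written 5′ to 3′ on the strand of the gene. Capitals mark the letters GAGGAA, a form of the ETS motif that PU.1 binds, or their reverse complement. The shorter ETS core GGAA was neither marked nor counted.
Wfdc17: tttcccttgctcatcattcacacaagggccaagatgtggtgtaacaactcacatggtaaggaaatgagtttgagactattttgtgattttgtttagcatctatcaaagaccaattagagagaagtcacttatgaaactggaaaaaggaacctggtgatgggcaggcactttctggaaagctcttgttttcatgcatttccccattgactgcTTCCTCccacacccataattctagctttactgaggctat
Igsf6: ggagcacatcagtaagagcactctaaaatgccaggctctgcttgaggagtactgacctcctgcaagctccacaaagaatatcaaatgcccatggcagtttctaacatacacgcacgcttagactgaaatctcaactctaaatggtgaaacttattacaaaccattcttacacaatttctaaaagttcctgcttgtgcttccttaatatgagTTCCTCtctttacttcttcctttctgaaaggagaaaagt
Ms4a6c: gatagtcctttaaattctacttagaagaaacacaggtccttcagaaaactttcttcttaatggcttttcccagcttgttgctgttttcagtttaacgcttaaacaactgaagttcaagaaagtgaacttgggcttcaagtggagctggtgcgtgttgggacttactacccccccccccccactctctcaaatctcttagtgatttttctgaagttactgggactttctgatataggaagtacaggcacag
Trem2: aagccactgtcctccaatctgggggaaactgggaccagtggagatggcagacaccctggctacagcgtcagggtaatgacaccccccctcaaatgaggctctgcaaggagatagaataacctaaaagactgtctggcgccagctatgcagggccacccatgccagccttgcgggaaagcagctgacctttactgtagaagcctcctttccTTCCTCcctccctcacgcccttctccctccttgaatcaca

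The match began 39 bases before the start in Wfdc17 and Igsf6 and 40 bases before it in Trem2, on the opposite strand to the gene in all 3. Ms4a6c held no GAGGAA on either strand, although its printed sequence holds the shorter GGAA. C1qb, Laptm5 and Cd53 had a match at a like distance, 30, 38 and 39 bases before the start. It lay on the strand of the gene in C1qb and Cd53 and on the opposite strand in Laptm5. Over all windows of the 34 genes, matches lay from 225 bases before the start to base 30 after it. How positions are spread in other genes was not counted. RefSeq promoter windows of 250 bases before and 50 after the start were at hand for 25 of the 34 genes. GAGGAA was in a window of 16 of these 25 genes (64.0%), against 31.3% of all 27025 genes with a window. The longer form GAGGAAGT, which contains GAGGAA, was in windows of 2 of the 25 genes, against 3.69% of all genes. It was in 2 of the 11 genes that fell at 4 h (18.2%) and in 0 of the 14 that did not pass, counts too small to compare. The share with GAGGAA was 63.6% (7 of 11) among genes that fell at 4 h and 64.3% (9 of 14) among those that did not pass. The letters GAGGAA thus marked windows of genes that fell and of genes that did not pass alike, and a match is a description, not a binding site.

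After 4 h of TGF-β1, 15 of the 34 genes were lower than in untreated cells and 0 were higher (limma, adjusted p under 0.05). This is 44.1%, where 3.02% of all tested probe sets were lower and 1.57% higher. As the genes were chosen with earlier results of these data known, the contrast with all probe sets is a description only. At an unadjusted p under 0.05, 20 of the 34 were lower and 0 higher, against 9.49% and 7.54% of tested probe sets. Those that fell were the surface genes Igsf6, Ms4a6c and Cd53, the antigen presentation chain Cd74, the signalling adaptors Fcer1g and Tyrobp, the Fc receptor Fcgr3, the complement chains C1qb and C1qc, the lysosomal genes Lyz2 and Laptm5, the receptors Csf1r, Cd163 and Cd14, and the secreted protein gene Wfdc17. Their log2 changes ran from -1.15 to -0.34, and the other 19 genes lay between -0.50 and 0.09. In bulk samples fewer cells of a type and less RNA per cell cannot be told apart. The count rests on the replicate number in the model and on single replicates, with 1 gene called when the number was left out of the fit, 8 with it as a random block, 5 without replicate 2 and 2 without replicate 3. Single genes differed in how often their call was lost, C1qc in 11 of 26 alternatives, Fcgr3 and Lyz2 in 10 of 25 each, Cd14 in 9 of 26 and C1qb in 7 of 26, each with the random block among them.

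**Figure D1:**
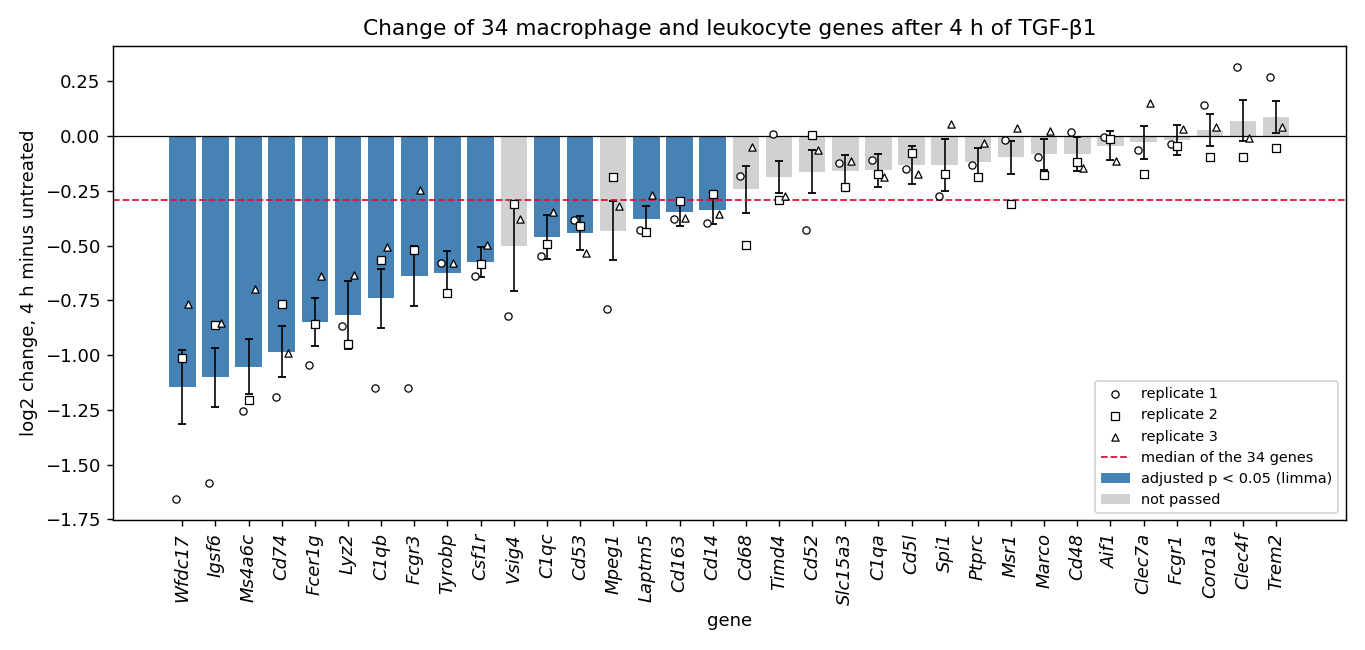
log2 change of each of the 34 genes at 4 h over untreated cells, ordered from the lowest. Bars are the fitted change with its standard error (blue, adjusted p under 0.05 in limma), symbols are the 3 replicates, and the dashed line is the median of -0.29. The bars form a slope from Wfdc17 at -1.15 to Trem2 at 0.09.

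Of 5 genes grouped here as receptors and a secreted protein of Kupffer cells, 0 passed at 4 h (limma, adjusted p under 0.05). At an unadjusted p under 0.05, 2 were lower. These 5 do not stand for all Kupffer cell genes. Of 43 further Kupffer cell and macrophage genes, 10 fell, 0 rose and 33 did not pass. Among those that fell were Adgre1 at -0.44 ± 0.09, Spic at -0.40 ± 0.09 and Clec1b at -0.68 ± 0.11 (limma, adjusted p = 0.021, 0.0258 and 0.00685). Adgre1 and Spic were picked after their values were seen. Clec4f, a C-type lectin of Kupffer cells that binds galactose, had log2 signals of 6.27, 6.48 and 6.48 in untreated replicates 1, 2 and 3 and of 6.58, 6.38 and 6.48 at 4 h. The groups overlapped, and the change was 0.07 ± 0.09 (SE). Its sign turned with the arrays used, to -0.05 without replicate 1 and -0.04 without the untreated array of that replicate. Marco, a scavenger receptor for bacteria, stayed between 6.69 and 6.95 on all 12 arrays. Timd4, a receptor for phosphatidylserine on dying cells, changed by -0.19 ± 0.07 (limma, adjusted p = 0.21), and Cd5l, a secreted protein of tissue macrophages, by -0.13 ± 0.09 (limma, adjusted p = 0.488). The untreated means of these 4 genes were all below the tested median, where background signal makes a change look smaller. Vsig4, the complement receptor that catches opsonised bacteria, had the largest change of the 5, -0.50 ± 0.21 (limma, adjusted p = 0.23). It read 6.96, 7.54 and 7.50 in untreated cells and 6.14, 7.23 and 7.12 at 4 h, with replicate changes of -0.82, -0.31 and -0.38. limma called it lower without replicate 1 and without the 20 min array of that replicate.

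The CSF1 receptor Csf1r fell, while the transcription factor gene Spi1, which encodes PU.1, did not pass. Csf1r read 8.04, 7.53 and 7.44 in untreated cells, 7.79, 7.39 and 7.34 at 20 min, 7.79, 7.10 and 7.07 at 2 h, and 7.41, 6.94 and 6.94 at 4 h. Replicate 1 was highest at every time, and within each replicate the 4 h array was the lowest. The fitted change at 4 h was -0.57 ± 0.07 (limma, adjusted p = 0.002), with replicate changes of -0.64, -0.59 and -0.50. Spi1 read 6.75, 6.77 and 6.83 in untreated cells and 6.48, 6.59 and 6.88 at 4 h, a change of -0.13 ± 0.12 (limma, adjusted p = 0.656). Without the 4 h array of replicate 1 its sign turned to 0.01. The probe set of Spi1 was dim, and its change was not tested against that of Csf1r. Of 16 measured genes for CSF1 receptor ligands and for signalling downstream of ITAM adaptors, 0 passed in either direction by limma, 1 was lower and 1 higher at an unadjusted p under 0.05, and the median change was 0.05.

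**Figure D2:**
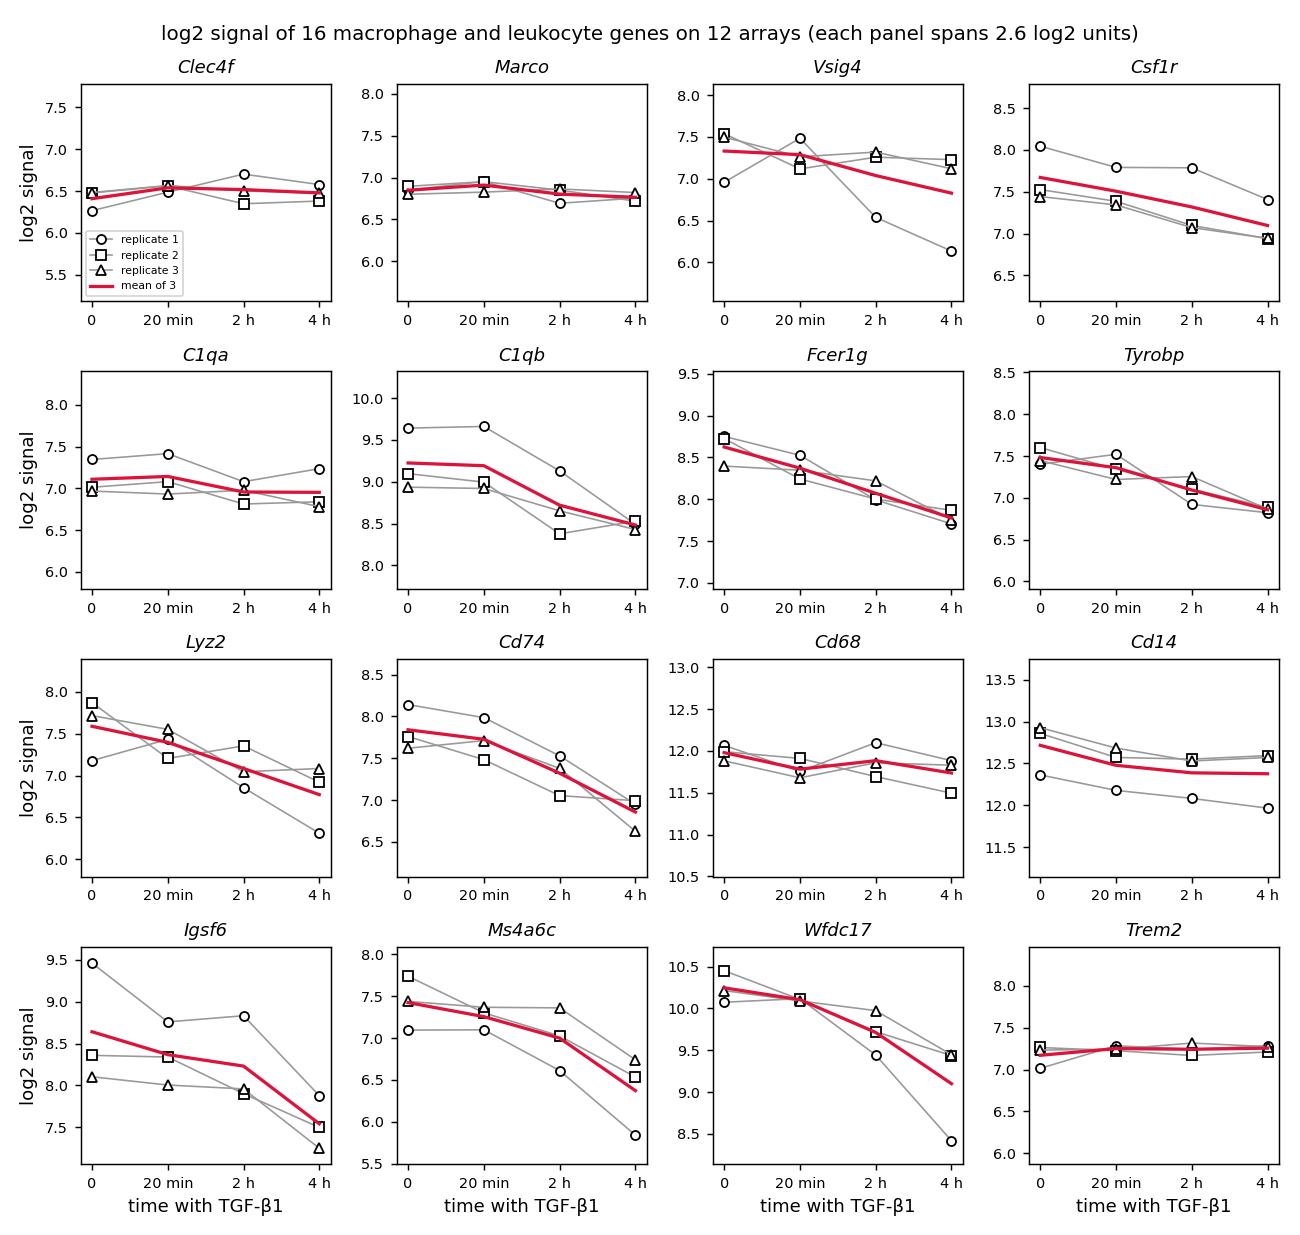
log2 signal of 16 of the 34 genes on each array against time with TGF-β1, with replicates 1, 2 and 3 as circles, squares and triangles joined by thin lines and their mean as a red line. Every panel covers the same number of log2 units, so slopes can be compared: Clec4f, Marco and Trem2 are flat, Cd14 drops early, and Igsf6, Ms4a6c, Wfdc17 and Cd74 go on falling to 4 h.

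The 3 chains of complement C1q, which are assembled into 1 protein and whose genes lie side by side on chr4 (C1qa at 136895916-136898844, C1qb at 136880126-136886200 and C1qc at 136889801-136892936), gave unequal changes. C1qb read 9.64, 9.10 and 8.94 in untreated cells and 8.49, 8.53 and 8.43 at 4 h, without overlap. Its change was -0.74 ± 0.13 (limma, adjusted p = 0.0118) and was largest in replicate 1, where the untreated signal was highest. C1qc fell by 0.46 ± 0.10 on the log2 scale (limma, adjusted p = 0.0248), from 7.68, 7.63 and 7.41 to 7.13, 7.13 and 7.06. C1qa read 7.34, 7.01 and 6.97 in untreated cells and 7.24, 6.84 and 6.78 at 4 h, a change of -0.16 ± 0.08 that did not pass (limma, adjusted p = 0.322). The order C1qb, C1qc, C1qa is also that of the signals, from bright to dim, and the part of background signal in it was not tested on the probes themselves. When the 10th percentile of each array was subtracted as background, the 3 changes were -0.79, -0.56 and -0.20. The chains were not tested against each other.

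Of the Fc receptors and ITAM adaptors, 3 of 4 fell. Fcer1g, the signalling chain shared by Fc receptors, read 8.75, 8.73 and 8.40 in untreated cells, 8.53, 8.24 and 8.35 at 20 min, 7.99, 8.0 and 8.22 at 2 h, and 7.71, 7.87 and 7.76 at 4 h. The change was -0.85 ± 0.11 (limma, adjusted p = 0.00289), and of the 34 genes it was the only one called under all of its 26 alternative settings. Tyrobp (DAP12), the adaptor of Trem2 and other receptors, went from 7.40, 7.60 and 7.45 to 6.82, 6.89 and 6.87, a change of -0.62 ± 0.10 (limma, adjusted p = 0.00601). The replicate changes of Tyrobp were close, -0.58, -0.71 and -0.58. Trem2, the lipid receptor that signals through Tyrobp, read 7.02, 7.26 and 7.23 in untreated cells and 7.29, 7.21 and 7.27 at 4 h, a change of 0.09 ± 0.07 (limma, adjusted p = 0.629). Its groups overlapped, and without replicate 1 the change was -0.01. Fcgr3, a low-affinity receptor for IgG, fell by 0.64 ± 0.14 on the log2 scale (limma, adjusted p = 0.0223), with replicate changes of -1.15, -0.52 and -0.25. It read 8.05, 6.93 and 6.81 in untreated cells, so replicate 1 began more than 1 log2 unit higher. Fcgr1, the high-affinity receptor for IgG, stayed within 5.81 to 6.05 on all arrays, and its change of -0.02 ± 0.07 did not pass (limma, adjusted p = 0.936) and was above 0 under 3 alternatives.

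Genes of the lysosome, phagosome and antigen processing were split as well, with 3 of 6 lower. Cd74, the invariant chain that guides MHC class II to the lysosome, read 8.14, 7.76 and 7.62 in untreated cells, 7.99, 7.48 and 7.71 at 20 min, 7.53, 7.05 and 7.38 at 2 h, and 6.95, 6.99 and 6.63 at 4 h. Its signal at 4 h was 50.6% of the untreated signal, with a log2 change of -0.98 ± 0.12 (limma, adjusted p = 0.00214). Lyz2, the lysozyme of macrophages, fell by 0.82 ± 0.15 on the log2 scale (limma, adjusted p = 0.0141), from 7.18, 7.87 and 7.72 to 6.31, 6.92 and 7.08. Here replicate 1 was the lowest at both times. Laptm5, a lysosomal membrane protein of blood cells, fell by 0.38 ± 0.06 on the log2 scale (limma, adjusted p = 0.0055). Cd68, a glycoprotein of macrophage lysosomes, had one of the 2 brightest probe sets of the 34, and its 12 values stayed between 11.50 and 12.10. Its change of -0.24 ± 0.11 did not pass (limma, adjusted p = 0.267), and what set the size of this change was not tested. Mpeg1, the pore-forming perforin-2 of phagosomes, changed by -0.43 ± 0.14 (limma, adjusted p = 0.107) with replicate changes of -0.79, -0.19 and -0.32. Slc15a3, a histidine and peptide transporter of lysosomes, changed by -0.16 ± 0.07 (limma, adjusted p = 0.289).

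Of the scavenger and pattern receptors, Cd163 and Cd14 fell. Cd163, the receptor for haemoglobin bound to haptoglobin, went from 6.83, 6.76 and 6.70 to 6.45, 6.46 and 6.33, and its change of -0.35 ± 0.06 (limma, adjusted p = 0.00952) had replicate values of -0.38, -0.30 and -0.37. Cd14, the coreceptor for lipopolysaccharide, which hepatocytes can make too, read 12.36, 12.86 and 12.93 in untreated cells, 12.18, 12.57 and 12.68 at 20 min, 12.08, 12.55 and 12.53 at 2 h, and 11.97, 12.59 and 12.57 at 4 h. Replicate 1 was the lowest at each time and the groups overlapped, but all replicate changes were below 0, at -0.40, -0.27 and -0.36. Its change was -0.34 ± 0.06 (limma, adjusted p = 0.012). Msr1, a receptor for modified lipoproteins, and Clec7a, the β-glucan receptor dectin-1, had dim probe sets, with changes of -0.10 ± 0.08 and -0.03 ± 0.07 that did not pass (limma, adjusted p = 0.588 and 0.897) and whose signs turned under some alternatives.

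Genes of the leukocyte surface held 2 of the 3 largest changes. Igsf6, an immunoglobulin superfamily member of myeloid cells (chr7:121064067-121074581), read 9.46, 8.36 and 8.10 in untreated cells, 8.76, 8.34 and 8.0 at 20 min, 8.83, 7.90 and 7.96 at 2 h, and 7.88, 7.50 and 7.25 at 4 h. The log2 change was -1.10 ± 0.13 (limma, adjusted p = 0.00235), with replicate changes of -1.58, -0.86 and -0.85. All 4 h values lay under all untreated values. Ms4a6c, a membrane-spanning 4A family member (chr19:11469353-11487182), read 7.10, 7.74 and 7.44 in untreated cells and 5.84, 6.54 and 6.74 at 4 h, a change of -1.05 ± 0.13 (limma, adjusted p = 0.002). It was called in 24 of 25 alternatives and lost only when the replicate number was left out. Its family members Ms4a6d and Ms4a6b, which are not among the 34, changed by -0.81 ± 0.14 and -0.43 ± 0.07 (limma, adjusted p = 0.0101 and 0.00726), and whether these similar sequences share probes was not tested. Cd53, a tetraspanin of leukocytes, fell by 0.44 ± 0.08 on the log2 scale (limma, adjusted p = 0.011) although its probe set was dim, with 6.30, 6.13 and 6.17 in untreated cells and 5.91, 5.72 and 5.63 at 4 h. Ptprc (CD45), the phosphatase carried by all nucleated blood cells, read 6.65 in all 3 untreated replicates and 6.52, 6.46 and 6.62 at 4 h. Its groups did not overlap, but the change of -0.12 ± 0.06 did not pass (limma, adjusted p = 0.39). Cd52, a small glycosylated antigen, and Cd48, a ligand of lymphocyte receptors, changed by -0.16 ± 0.10 and -0.08 ± 0.08 (limma, adjusted p = 0.445 and 0.669).

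Wfdc17, a small secreted protein of macrophages with a WAP domain (chr11:83704056-83706269), had the lowest change of the 34 genes. It read 10.07, 10.45 and 10.21 in untreated cells, 10.12, 10.11 and 10.09 at 20 min, 9.44, 9.72 and 9.97 at 2 h, and 8.42, 9.44 and 9.45 at 4 h. The 3 replicates were alike at 20 min and had spread by 4 h, where replicate 1 stood about 1 log2 unit under the others. The change was -1.15 ± 0.17 (limma, adjusted p = 0.00475), which left 45.2% of the untreated signal. The actin regulators did not pass: Coro1a, a coat protein of phagosomes, changed by 0.03 ± 0.07 and Aif1 (Iba1) by -0.05 ± 0.07 (limma, adjusted p = 0.903 and 0.804). Both had dim probe sets, and the sign for Coro1a turned without replicate 1.

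Replicates paired by number were lower at 4 h in 3 of 3 for 23 of the 34 genes, where 17.4% of tested probe sets were. The groups did not overlap and 4 h was lower for 14 genes, where 5.58% of tested probe sets did so. At the stricter threshold of an adjusted p under 0.01 with a 2-fold change or more, Igsf6, Ms4a6c and Wfdc17 remained, 3 of the 7 probe sets that passed as lower among all tested (0.0321%).

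The changes were compared with each other in size. At 4 h the changes of the 34 genes had a median of -0.29 and an SD of 0.36, while the median standard error of a single change was 0.08, and 31 of 34 were below 0. Over all tested probe sets the median was 0.02, the SD 0.17 and 43% were below 0. In replicates 1, 2 and 3 the median of the 34 genes was -0.38, -0.29 and -0.26, and the SD 0.52, 0.32 and 0.30. To test single genes against the rest, the median of the 34 genes on each array was subtracted from that array and the model was fitted again. By limma at an adjusted p under 0.05, 10 genes then fell below the median change (C1qb, Cd74, Csf1r, Fcer1g, Fcgr3, Igsf6, Lyz2, Ms4a6c, Tyrobp and Wfdc17), where 0.601% of tested probe sets did. Clec4f, Coro1a and Trem2 stood above it, where 54.7% of tested probe sets did, so the background share is larger than that of the 34 genes. Subtracting 1 shared median from every probe set left the model no spread in the variances (infinite prior degrees of freedom), which makes these p values too small. With each probe set's own variance instead, 5 stayed below (Cd74, Fcer1g, Ms4a6c, Tyrobp and Wfdc17; background 0.0643%) and Fcgr1 alone stood above (background 8.67%).

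Split by the mean signal over all 12 arrays, 11 genes lay at or above the tested median and 9 of them fell (5.43% of tested probe sets of that level did), with a median change of -0.57 and an SD of 0.39. The 2 that did not pass were Cd68 and Trem2. Of the 23 genes below it, 6 fell (background 0.597%), with a median of -0.16 and an SD of 0.29. They were Ms4a6c, Lyz2, Fcgr3, Tyrobp, Cd53 and Cd163. This mean includes the 4 h arrays, so the fall itself helps to place a gene: the untreated means of Ms4a6c, Lyz2, Fcgr3 and Tyrobp were 7.42, 7.59, 7.26 and 7.48, above the tested median, and that of Trem2 was 7.17, below it. The split is a description, and nothing about dim probe sets is read from it. With the 10th percentile of each array subtracted, the median of the 34 changes was -0.36 and the SD 0.42, with Ms4a6c at -1.47, Igsf6 at -1.23 and Cd74 at -1.21, but Cd68 at -0.25 and Trem2 at 0.11. This offset is an assumed one, and the part of background in the spread was not tested on the probes themselves.

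The time course was gradual. At 20 min the median change of the 34 genes was -0.05 and at 2 h -0.15, against 0.00 and 0.01 over all tested probe sets. limma called 0 of the 34 genes at either time at an adjusted p under 0.05, and 0 probe sets in all. At an unadjusted p under 0.05, 4 genes were lower at 20 min (Cd14, Cd53, Csf1r and Fcer1g; 5.87% of tested probe sets) and 14 at 2 h (3.96% of tested probe sets). Those at 2 h were C1qb, C1qc, Cd14, Cd163, Cd53, Cd74, Csf1r, Fcer1g, Igsf6, Laptm5, Lyz2, Ms4a6c, Tyrobp and Wfdc17, in a comparison that shares the untreated arrays with that at 4 h. The moderated F test over the 3 later times called 11 of the 34 genes, where 1.4% of tested probe sets passed.

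Against 20 min, in a comparison that uses the same 4 h arrays as the one with untreated cells, 10 genes were lower at 4 h (limma, adjusted p under 0.05; 0.184% of tested probe sets). They were C1qb, Cd163, Cd74, Csf1r, Fcer1g, Igsf6, Laptm5, Ms4a6c, Tyrobp and Wfdc17. Between 2 h and 4 h limma called 0 of the 34 genes (0.0275% of tested probe sets were lower and 0.0505% higher), and 11 were lower at an unadjusted p under 0.05, where 4.54% of tested probe sets were. The genes reached different shares of their 4 h change by 2 h. Cd14 was at -0.24, -0.33 and -0.34 at 20 min, 2 h and 4 h, so 96.8% of the change was there at 2 h. C1qb and C1qc had 68.1% and 71.1% of it, Fcer1g 65.2%, Tyrobp 62.3% and Csf1r 61.4%. Wfdc17, Ms4a6c and Igsf6 had 46.6%, 40.3% and 37.3%, and differed from 2 h to 4 h by -0.61, -0.63 and -0.69 (limma, adjusted p = 0.212, 0.0858 and 0.0858). Whether these shares differ between genes was not tested.

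**Figure D3:**
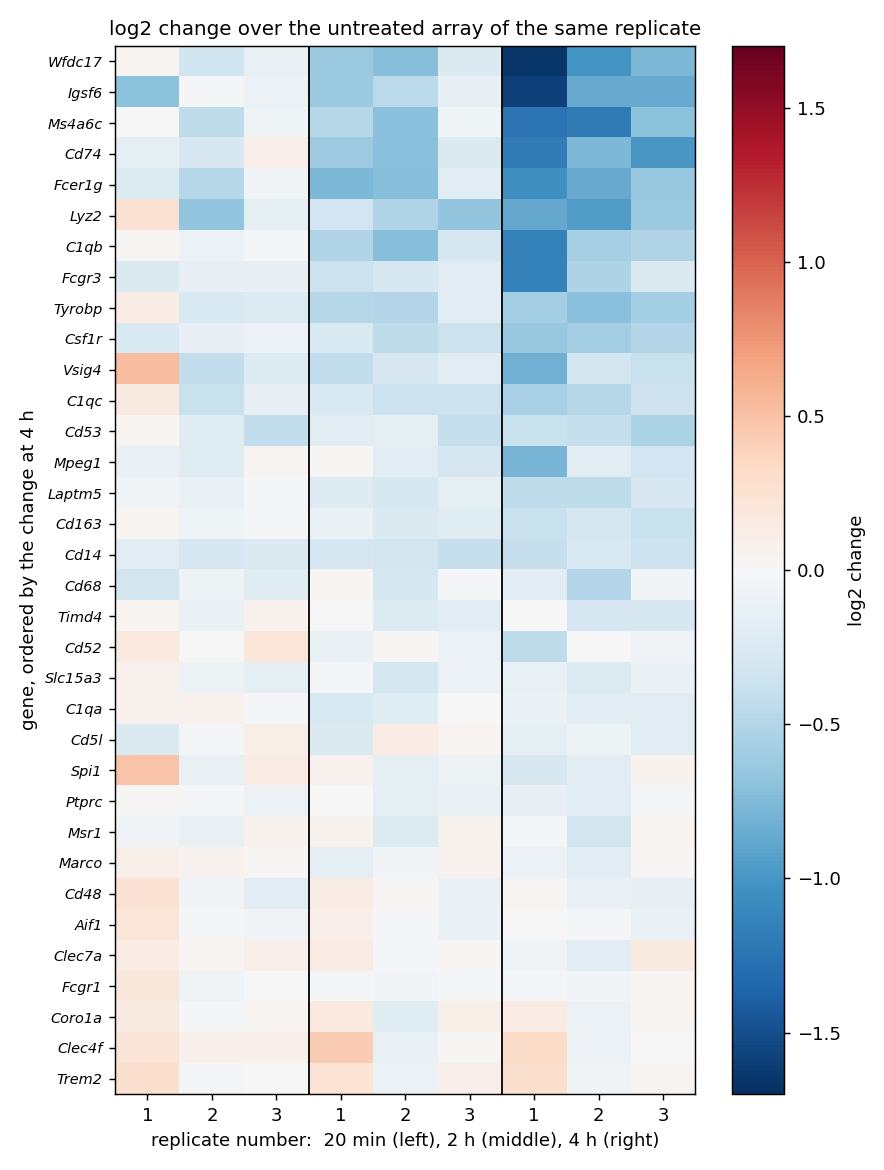
log2 change of the 34 genes over the untreated array of the same replicate, at 20 min, 2 h and 4 h for replicates 1 to 3, ordered by the change at 4 h, with blue for lower and red for higher. The upper rows are mostly darkest at 4 h, with exceptions such as C1qb in replicate 2, at -0.72 at 2 h and -0.57 at 4 h. The lowest values were in replicate 1 at 4 h, where Wfdc17 and Igsf6 reached -1.66 and -1.58, and the lower rows stay pale.

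Replicate 1 stood apart before any treatment, higher for some genes and lower for others. Its untreated signal was above the mean of the other 2 replicates by 1.23 for Igsf6, 1.18 for Fcgr3, 1.07 for Mpeg1, 0.63 for C1qb, 0.56 for Csf1r and 0.45 for Cd74. For Lyz2, Vsig4, Cd14 and Ms4a6c it was lower, with differences of -0.62, -0.56, -0.53 and -0.49. The part of this difference in the changes at 4 h was not tested. It is 1 array against 2 and has no test. Without replicate 1 limma called 16 of the 34 genes lower at 4 h.

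Other genes listed for macrophages and leukocytes gave mixed changes as well. Which cells of the cultures gave these signals was not tested. Of 43 further Kupffer cell and macrophage genes measured, 10 fell and 0 rose, with a median change of -0.14. Cybb, the NADPH oxidase chain of phagocytes, fell by 0.96 ± 0.07 on the log2 scale (limma, adjusted p = 2.11e-04), the platelet and Kupffer cell lectin Clec1b stood at -0.68, the Fc receptor Fcgr4 at -0.50 and the lysosomal protease Lgmn at -0.37. Of 40 further leukocyte cytoskeleton and signalling genes, 3 fell and 1 rose, with a median of -0.03. Those that fell were Arhgdib, the integrin chain Itgb2 and the actin regulator Nckap1l, with log2 changes of -0.68, -0.53 and -0.27. The transcription factor Runx1 rose by 0.44. H2-Ab1, 1 of 5 measured MHC class II genes, fell by 0.69 (limma, adjusted p = 0.0151). Of 20 inflammatory genes of activated macrophages, with a median of -0.18, 3 fell, with the chemokines Ccl5 at -0.84 and Cxcl2 at -0.44 and the interleukin-1 antagonist Il1rn at -0.28.

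Markers of other cell types were counted in the same way, beside the 3.02% of all tested probe sets that were lower. In sinusoidal endothelial cells 2 of 23 markers fell (Flt1 at -0.39 and Lyve1 at -0.37), with a median of 0.02, and Stab2 read 7.70 and Clec4g 6.88 in untreated cells. In stellate cells 2 of 20 fell (Dcn at -0.48 and Hgf at -0.31), with a median of 0.04, and Lrat was dim at 5.53. Of 13 neutrophil markers only Mmp8 fell, at -0.35, with a median of -0.01, and S100a8 was dim at 5.62. For T, NK and B cells (18 markers, Cd3e 7.10 and Cd79a 5.28), dendritic cells (10 markers) and cholangiocytes (10 markers, Krt19 6.75) limma called 0 in either direction. Their medians were 0.03, 0.04 and 0.04. Of 16 hepatocyte genes 2 fell, the asialoglycoprotein receptor Asgr1 at -0.29 and the enzyme Tat at -0.31, with a median of -0.13 and 14 of 16 below 0. At an unadjusted p under 0.05, 14 of the 43 macrophage, 7 of the 40 leukocyte, 7 of the 20 inflammatory, 2 of the 5 MHC class II, 4 of the 23 endothelial, 2 of the 20 stellate, 1 of the 13 neutrophil and 7 of the 16 hepatocyte genes were lower, while 2 leukocyte, 1 endothelial and 3 stellate genes were higher. For T, NK and B cell, dendritic cell and cholangiocyte markers 0, 1 and 0 were lower and 0, 0 and 2 higher. These counts stand beside 9.49% of all tested probe sets lower and 7.54% higher. No list was tested against another. Summed on the linear scale, the 34 signals ran from 16284 to 17678 over the untreated arrays, 14650 to 15247 at 20 min, 13835 to 14490 at 2 h and 11655 to 13797 at 4 h, a sum that Cd14 and Cd68 make up for the most part.

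**Figure D4:**
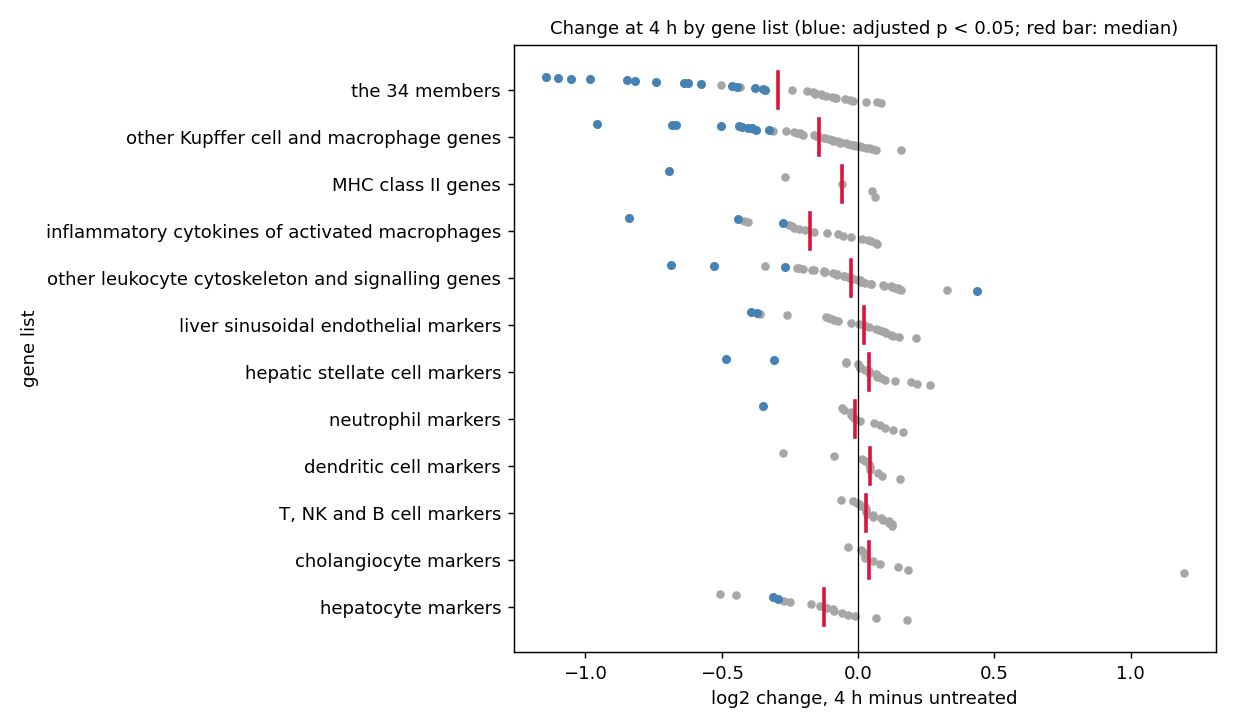
log2 change at 4 h of each measured gene in 12 lists, 1 row per list and 1 point per gene, with blue for an adjusted p under 0.05 in limma and a red bar at the median of the list. The 34 genes reach furthest to the left, with a median of -0.29, the inflammatory genes have a median of -0.18 and the other Kupffer cell and macrophage genes of -0.14, and the single point far to the right is Sox9 at 1.19 in the cholangiocyte list, which did not pass.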

How the data were processed

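RNA of 12 hepatocyte cultures was hybridised to 12 arrays. Values are deposited as log2 signals. Affymetrix Power Tools and RMA, which corrects background, normalizes quantiles and summarizes probe sets, are named in the submitters' processing notes without versions. The paper's own analysis used FARMS. It reports a strong batch effect among the mouse HPC chips, which it adjusted with ComBat, and 1 bad chip, replicate 1 at 1 h, which it left out. The processing tools named for the deposited values include no batch adjustment. Of 35556 probe sets, 21789 with exactly 1 symbol in the platform table were fitted, with no filter on level. 1621 had several symbols and 12146 were not listed. limma 3.58.1 in R 4.3.3 used time and replicate number as factors (6 residual and 5.39 prior degrees of freedom), with Benjamini-Hochberg adjustment over all of them. The replicate factor follows the paper's methods. Same-numbered arrays of different times deviated together in all 18 pairs (r 0.555 to 0.881). Replicates 2 and 3 did so across numbers as well (0.539 to 0.722), so the check sets apart replicate 1 only. Nothing in the labels says that replicates came from separate mice, so p values measure the spread between these arrays. All 34 genes are named, and of other lists up to 4 called genes, apart from those given next. Ms4a6b, Ms4a6d, Sox9, Adgre1 and Spic were chosen after their values were seen. The genes and lists were chosen with earlier results of these data known. The model was tested on simulated data. Alternatives are given under the dependence on the processing. RefSeq promoters are of GRCm38.p6.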

Additional observations from a re-analysis of the deposited data

Results flagged for a closer look

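For 10 of the 34 genes the change from untreated cells differed between 20 min and 4 h by limma. The 4 h signal was lower than the 20 min signal by log2 differences of -1.0 for Wfdc17, -0.884 for Ms4a6c, -0.87 for Cd74, -0.826 for Igsf6, -0.708 for C1qb, -0.595 for Fcer1g, -0.502 for Tyrobp, -0.41 for Csf1r, -0.326 for Cd163 and -0.313 for Laptm5 (limma, adjusted p from 0.00978 to 0.048), each in 3 of 3 replicates. Groups of 3 arrays are too small for a test of single outlying arrays.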

How the results depend on the processing

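The 15 genes lower at 4 h became 1 with no replicate block, 8 with the replicate block as a random effect, 9 of the 11 measured at or above the median level, 3 at an adjusted p under 0.01 and 2-fold, and 2 to 16 when a replicate or an array was left out (5 without replicate 2, 2 without replicate 3). Over all tested probe sets, the calls at 4 h went from 1000 to 31 with no replicate block, 101 without replicate 2 and 32 without replicate 3. No gene was called higher under any alternative. At 2 h the trended and robust prior called 1 gene, and from 2 h to 4 h it and the array weights called 2 each, with 0 to 1 over the left-out arrays. The 11 genes of the time course became 0 with no replicate block, 2 with the random block, 0 over all 35556 probe sets and 0 to 12 over the left-out arrays (0 without replicate 3, 1 without replicate 2). The median change was -0.57 at or above the median level and -0.36 with the 10th percentile subtracted. The 13 genes that differed from the median of the 34 became 1 with no replicate block, 7 over all probe sets, 6 among those of at least median level, 6 to 18 over the left-out arrays and, in 2 alternatives chosen after seeing the data, 6 with each probe set's own residual variance and 24 against the median of the 11 brighter genes. For single genes at 4 h, 783 values stayed called or not called as before, 75 lost the call, 3 gained it and no called value reversed. The 783 include 16 values of genes that did not pass whose sign changed.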
